A study of Mus musculus with 15 samples.

Results

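Ribosome biogenesis factors are the proteins that transcribe, cut, modify and fold ribosomal RNA and build it into ribosomal subunits. A set of 59 such genes was taken by gene symbol from 2 mouse data sets in which Zscan4 was raised or lowered. Of them, 57 had a row among the 51627 genes measured in embryonic stem cells (ESCs) and 59 among the 53564 genes measured in 2-cell embryos. Rrp15 and Nhp2 were not analysed here in ESCs. All 57 and all 59 passed the filter on low values. By role they fell into 10 groups, from the proteins that bind the nascent precursor to those that act late on each subunit.

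In the nucleolus, RNA polymerase I makes a long precursor RNA that holds the RNAs of both ribosomal subunits. The small subunit processome, built from the UTP-A, UTP-B and MPP10 subcomplexes and the U3 small nucleolar RNP, assembles on the precursor, while box C/D and box H/ACA RNPs methylate and pseudouridylate it and separate factors assemble the large subunit. Early mouse embryos first live on ribosomes stored in the oocyte and start nucleolar ribosomal RNA synthesis around the 2-cell stage; ESCs divide fast and run the pathway at a high rate.

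The ESC libraries came from J1 cells, a mouse ESC line grown without feeder cells, at passage label PN+8, as 2 wild-type controls and 2 libraries labelled Zscan4 OE (overexpression). The embryo libraries came from 2-cell embryos, 5 wild type and 6 labelled Zscan4 RNAi. The Zscan4 genes encode related zinc finger proteins with a SCAN domain and are active in 2-cell embryos and, at any time, in few ESCs; each group was compared with the controls of its own table. The labels call the molecule genomic DNA, name a transposase DNA library kit and repeat the cell culture protocol for the embryos, although the titles say RNA-Seq; nothing in them gives the promoter of the transgene, the agent of the RNAi, or whether replicates were separate cultures or embryo pools, so p-values speak of the spread among these libraries alone and that spread may be technical.

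Values are normalised reads, that is, read counts divided by 1 factor per library. The ESC libraries held 21820093 to 26555027 reads in genes, and the embryo libraries 695524 to 1432566. The summed Zscan4 genes stood at 152 and 212 normalised reads in the ESC controls and at 20005 and 19449 with overexpression (exact permutation p = 0.333, two-sided, the smallest that 2 against 2 can give). In embryos they stood at 907, 1064, 680, 676 and 345 in controls 1 to 5 and at 262, 164, 379, 13.9, 383 and 174 in RNAi libraries 1 to 6 (exact permutation p = 0.013, two-sided). ESC markers were present in all 4 ESC libraries, with a summed level of 103854 to 104551 in controls and 118056 to 148167 with overexpression (2 of 10 higher). The same genes summed to 674 to 1593 in control embryos and 349 to 592 with RNAi (3 of 10 lower), without overlap. A list of 2-cell stage markers went from 164 to 196 in control ESCs to 18018 to 18803 (10 of 15 higher). In embryos it went from 1843 to 3961 in controls to 773 to 1675 with RNAi (7 of 16 lower). The list holds Zscan4c, Zscan4d and Zscan4f, so its shifts are not separate from those of the Zscan4 sum. Oocyte transcripts were higher in the RNAi embryos for 9 of 20 genes, with sums of 12039 to 18902 in controls and 39920 to 69573 with RNAi. In ESCs they summed to 2646 to 2800.2 in controls and 3192 to 5061 with overexpression (2 of 15 higher, 2 lower), with Oosp1, Btg4 and Rfpl4 at 0. Feeder markers summed to 37319 to 40221 in control ESCs and 34965 to 51403 with overexpression (3 of 9 higher, 2 lower), and to 22.3 to 53.4 in embryos, with Col3a1 at 0. Of 13 cumulus and granulosa cell markers, 4 were at 0 in the embryos, namely Has2, Amh, Inha and Inhba. The whole list summed to 121 to 167 in controls and 163 to 1258 with RNAi (1 of 5 tested higher, 1 lower). The part of these shifts in the results was not tested.

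Promoters are shown for 4 members that passed the test in both comparisons, to let their start regions be read beside their values: Utp3 and Nop16, which had the largest log2 fold changes in the ESCs and in the embryos respectively, and Utp4 and Nop2, which carry both motifs marked. The choice was made after the values were seen. Each is the RefSeq window (GRCm38.p6, the assembly also called mm10) from 250 bases before to 50 bases after the annotated start, 5′ to 3′ on the gene's strand. Utp3 lies at chr5:88554212-88554511 on the plus strand, Utp4 at chr8:106893390-106893689 on the plus strand, Nop2 at chr6:125131633-125131932 on the plus strand and Nop16 at chr13:54590025-54590324 on the minus strand. Capitals mark the E-box CACGTG and the ETS core CCGGAAG or its reverse complement.
Utp3: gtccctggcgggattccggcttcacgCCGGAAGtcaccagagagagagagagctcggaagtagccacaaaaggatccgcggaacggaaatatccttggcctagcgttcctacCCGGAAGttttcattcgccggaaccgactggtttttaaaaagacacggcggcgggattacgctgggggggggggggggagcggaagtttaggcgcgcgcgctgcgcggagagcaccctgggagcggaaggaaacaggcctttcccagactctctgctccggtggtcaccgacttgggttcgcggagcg
Utp4: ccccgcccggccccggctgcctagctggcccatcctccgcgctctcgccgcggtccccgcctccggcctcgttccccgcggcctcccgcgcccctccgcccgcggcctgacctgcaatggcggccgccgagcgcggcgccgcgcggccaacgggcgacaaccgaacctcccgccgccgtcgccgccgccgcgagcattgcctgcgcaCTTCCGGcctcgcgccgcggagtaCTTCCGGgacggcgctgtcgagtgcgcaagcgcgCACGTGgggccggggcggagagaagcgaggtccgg
Nop2: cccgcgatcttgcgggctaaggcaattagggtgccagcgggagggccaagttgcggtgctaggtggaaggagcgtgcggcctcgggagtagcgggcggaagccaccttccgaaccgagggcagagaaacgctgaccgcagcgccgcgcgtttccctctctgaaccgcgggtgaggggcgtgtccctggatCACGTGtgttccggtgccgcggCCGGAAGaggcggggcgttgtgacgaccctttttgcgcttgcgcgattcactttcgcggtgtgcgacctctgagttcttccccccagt
Nop16: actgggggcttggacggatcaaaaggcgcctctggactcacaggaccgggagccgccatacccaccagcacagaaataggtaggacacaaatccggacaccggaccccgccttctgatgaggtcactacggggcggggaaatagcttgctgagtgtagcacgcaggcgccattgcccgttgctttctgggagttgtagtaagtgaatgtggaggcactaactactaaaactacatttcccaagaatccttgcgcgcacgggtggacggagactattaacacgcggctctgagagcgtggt

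Utp3 held 2 ETS cores and no E-box, Utp4 held 2 ETS cores and 1 E-box, Nop2 held 1 of each, and Nop16 held neither. RefSeq windows were found for 48 of the 59 members, 54 windows in all, and were searched on both strands; a base could count toward more than 1 motif. The E-box, the site of MYC with its partner MAX and of other basic helix-loop-helix leucine zipper factors, stood in 11 of the 54 windows (20.4%), against 7.15% of all 32851 windows and 7.84% of 21262 windows of protein-coding genes. The ETS core stood in 22 (40.7%), against 8.86% and 11.6%. The GC box GGGCGG stood in 35 (64.8%), against 35.7% and 46.2%, and TATAAA in 3 (5.56%), against 13.6% and 12.6%. The sequence TGCACAC, given for Zscan4 binding, stood in 3 windows (5.56%), those of Tsr1 and Wdr12, against 4.40% and 3.89%. Of the 11 genes with an E-box, 6 were higher in overexpressing ESCs and 6 lower in RNAi embryos (54.5% each), beside 40.4% and 66.1% of all members and 11.7% and 12.0% of all genes. Of the 20 genes with an ETS core, 18 were analysed in ESCs, where 10 were higher (55.6%), and 12 of the 20 were lower in embryos. No relation between a motif and a change was tested. A match describes letters in a window and is not a bound site.

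The first comparison asked what Zscan4 overexpression did to the pathway's transcripts in ESCs. Of 57 members, 23 were higher in overexpressing cells, by 1.65-fold to 3.63-fold among those that passed the test, and 34 did not pass. Members rose in 9 of the 10 role groups, led by the MPP10 proteins Utp3 and Imp4, the processome proteins Wdr46 and Rrp7a, and the large subunit methyltransferase Nop2. Nucleolin (Ncl) did not pass the test, and nucleophosmin (Npm1) was lower in both overexpression libraries without passing it.

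In limma, 23 of 57 members were higher at an adjusted p under 0.05 (40.4%), beside 11.7% of the 20888 genes tested, and 0 were lower. At an unadjusted p under 0.05, 1 member was lower, Npm1; edgeR and DESeq2 also called 0 lower. The median log2 fold change was 0.77 over the members and -0.02 over all genes. The fitted change was positive for 51 of 57 members, beside 49.3% of all genes. Both overexpression libraries lay above both controls for 46 members (80.7%), beside 34.2% of all genes. They lay below both for 3, namely Npm1, Tsr1 and Utp18, beside 7219 of the 20888 genes. In bulk libraries, a change in the share of cells that express a gene and a change in RNA per cell cannot be told apart. Members together took 1.44% of the reads in each control and 1.84% and 1.71% with overexpression.

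**Figure D1:**
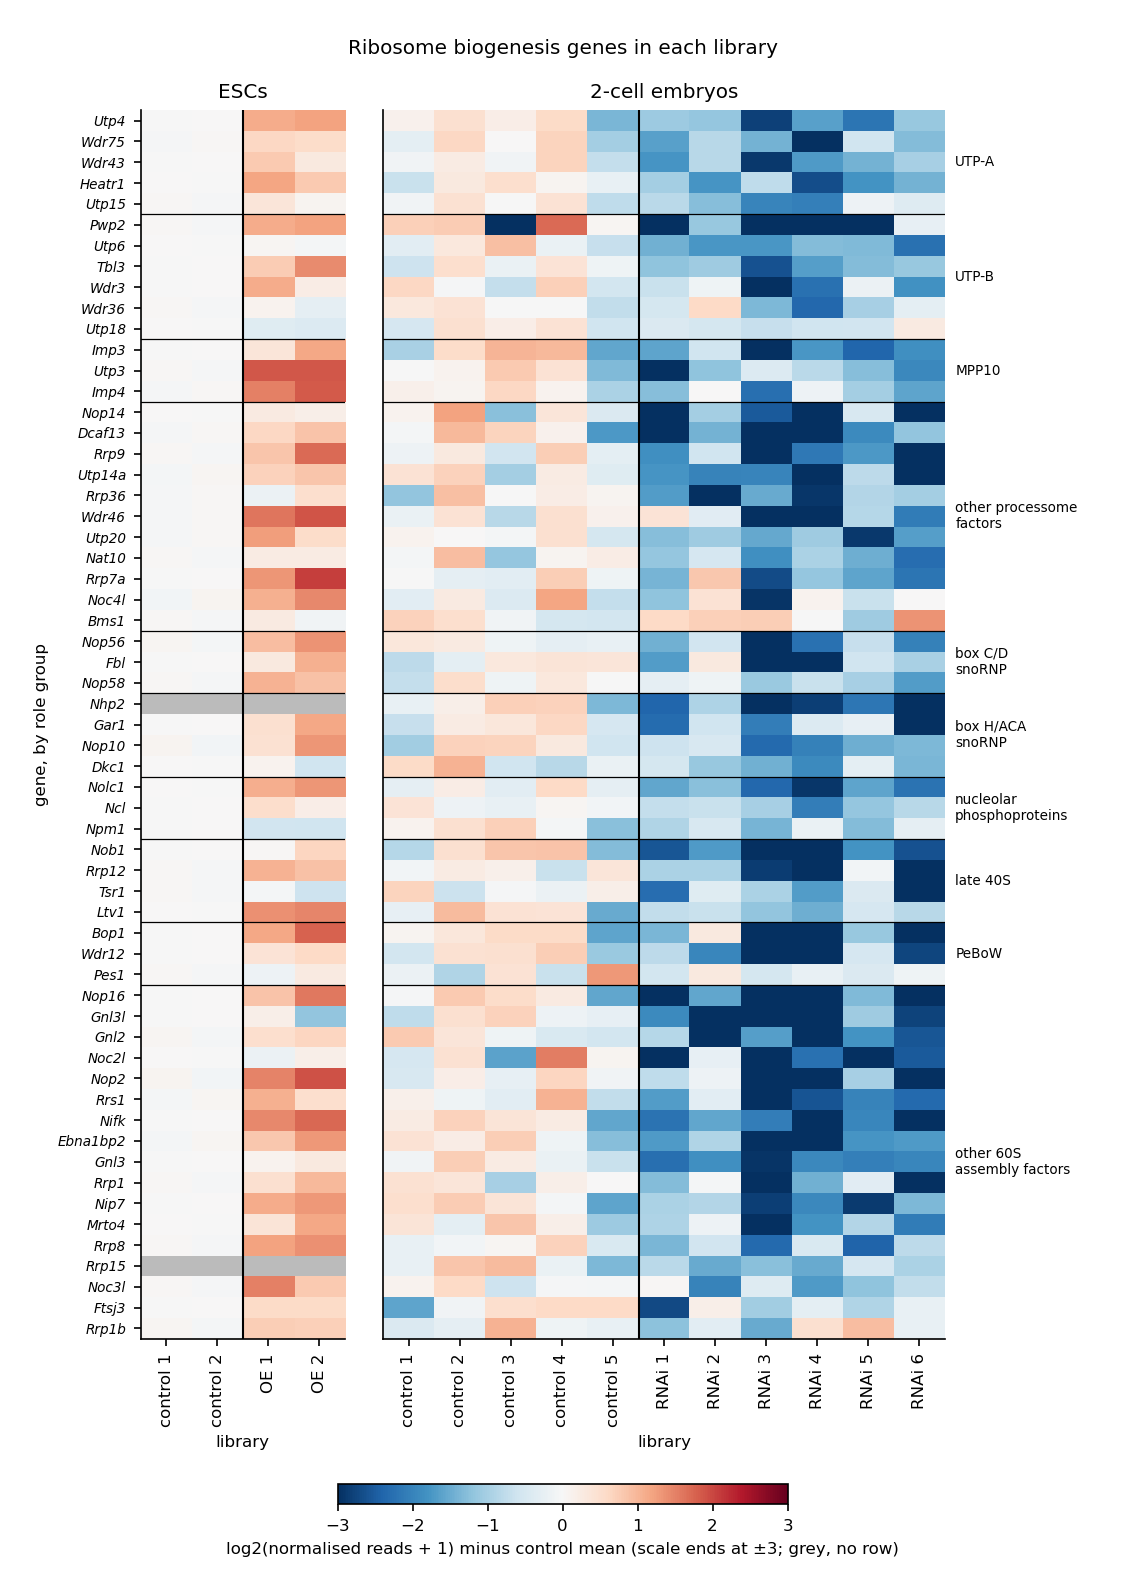
Each row is a member, grouped by role, and each column a library; colour gives log2(normalised reads + 1) minus the mean of the controls of that table, with the scale ending at 3 log2 units either way and grey where no row was analysed. The 2 overexpression columns are red for most members and the 6 RNAi columns blue, palest in RNAi 2, while control 5 is the lowest of the controls for 30 members.

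Among the UTP-A proteins, which bind the start of the precursor and are also needed for its transcription, Utp4 and Heatr1 rose and Wdr75, Wdr43 and Utp15 did not pass the test (group median 0.58). Utp4 (chromosome 8, 106893636 to 106923088) stood at 3944 and 4003 normalised reads in controls and 8586 and 9236 with overexpression. Its rise was 2.24-fold (log2 fold change 1.16, SE 0.15, adjusted p = 0.0186), and the groups did not overlap. Utp15 changed least, from 1629.6 and 1563 to 2042 and 1696 (log2 fold change 0.22, SE 0.18, adjusted p = 0.399). Of 6 UTP-B proteins, which form a scaffold beside UTP-A, only Pwp2 passed (group median 0.33). Pwp2 stood at 1501 and 1449 and rose to 3185 and 3411 (log2 fold change 1.16, SE 0.15, adjusted p = 0.0186), with no overlap. Utp6, a helical-repeat subunit of the same complex, stood at 3834 and 3756 in controls and 3955 and 3658 with overexpression, and the groups overlapped (log2 fold change 0.00, SE 0.15, adjusted p = 0.989).

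The MPP10 group changed most (median 1.68, 2 of 3 higher). The MPP10 protein itself (Mphosph10) is not a member and was counted with the other processing and assembly factors. Named after its values were seen, it did not pass in limma (log2 fold change 0.61, SE 0.15, adjusted p = 0.0518). Utp3, a partner of the MPP10 protein (chromosome 5, 88554462 to 88556090), stood at 951 and 902 in controls and at 3359 and 3366 with overexpression. The replicates of each condition lay close together and far from the other condition: the rise was 3.63-fold (log2 fold change 1.86, SE 0.15, adjusted p = 0.0118), the largest among the members. Imp3 and Imp4, which help the U3 RNA pair with the precursor, differed from each other. Imp4, chosen after its values were seen, rose from 1334 and 1381 to 3896 and 4894 (log2 fold change 1.68, SE 0.19, adjusted p = 0.0151). Imp3 stood at 1025 and 1047 and at 1333 and 2329.5, higher in both but with overexpression replicates far apart (log2 fold change 0.77, SE 0.31, adjusted p = 0.144).

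Among 11 other processome proteins, Wdr46, Noc4l, Rrp7a, Utp14a and Dcaf13 rose (median 0.77). Wdr46, a beta-propeller protein of the forming particle, went from 1040.1 and 1081 to 3239.9 and 3912 (log2 fold change 1.75, SE 0.18, adjusted p = 0.0137). Rrp7a, which binds within the UTP-C module, went from 1066 and 1089 to 2710.2 and 4569.6 (log2 fold change 1.71, SE 0.30, adjusted p = 0.0276); its overexpression libraries differed from each other by more than the controls did. The GTPase Bms1 changed least, with 4834 and 4638 in controls and 5688 and 4374 with overexpression (log2 fold change 0.08, SE 0.20, adjusted p = 0.805), and its groups overlapped.

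Both scaffold proteins of box C/D RNPs rose, Nop56 and Nop58. Nop58 went from 7700.4 and 7416 to 15659 and 13879 (log2 fold change 0.96, SE 0.17, adjusted p = 0.0273). The methyltransferase of the same particles, fibrillarin (Fbl), stood at 5842 and 5852 and at 7204 and 12269.8: both overexpression libraries were higher, and their own distance kept the change from passing (log2 fold change 0.69, SE 0.30, adjusted p = 0.165). No box H/ACA protein passed of the 3 analysed, in limma or edgeR; 2 had an unadjusted p under 0.05. Gar1 stood at 863 and 890.3 and 1215 and 1967 (log2 fold change 0.82, SE 0.28, adjusted p = 0.104, and in DESeq2 at an adjusted p of 0.0423). Dkc1, the pseudouridine synthase, stood at 5912 and 5804 and 6324 and 3883, with overlapping groups (log2 fold change -0.24, SE 0.28, adjusted p = 0.563).

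Of the nucleolar phosphoproteins, Nolc1, a chaperone of small nucleolar RNPs, rose from 4872 and 4799.6 to 10281 and 12169.7 (log2 fold change 1.21, SE 0.17, adjusted p = 0.0204), with no overlap. Ncl, which binds the nascent precursor, stood at 77960.3 and 78131 in controls and 112333 and 88950.4 with overexpression (log2 fold change 0.36, SE 0.23, adjusted p = 0.304). Npm1, a chaperone that organises the outer nucleolus, stood at 110680 and 111322 and 75129.6 and 72977. It was lower in both overexpression libraries and missed the threshold (log2 fold change -0.58, SE 0.20, adjusted p = 0.102); it was named after its values were seen.

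Late small subunit factors split evenly. Ltv1, which leaves the particle at its final maturation, went from 1274 and 1239 to 3278 and 3469 (log2 fold change 1.42, SE 0.15, adjusted p = 0.0145), and Rrp12 also rose. Nob1, the nuclease that makes the final cut of the small subunit RNA, stood at 3049 and 3107 and 3171 and 4825 (log2 fold change 0.35, SE 0.25, adjusted p = 0.361). Tsr1, a GTPase-like factor of the same step, was -0.35 and did not pass.

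For the large subunit, 1 of 3 PeBoW proteins and 7 of 16 other factors rose (medians 0.50 and 0.78). Bop1 went from 2081 and 2139 to 4734 and 7142 (log2 fold change 1.46, SE 0.25, adjusted p = 0.0269), while its partner Pes1 stood at 7954 and 7477 and 6940.1 and 9283 with overlapping groups (log2 fold change 0.06, SE 0.21, adjusted p = 0.862). Nifk, a nucleolar RNA-binding protein that binds the proliferation marker Ki-67, went from 1752 and 1765 to 4769 and 5774 (log2 fold change 1.58, SE 0.17, adjusted p = 0.0152). Nop2 (chromosome 6, 125131909 to 125144753), named after its values were seen, went from 2412 and 2139 to 6407 and 8550.3 (log2 fold change 1.70, SE 0.21, adjusted p = 0.0174). Noc2l, which pairs with other Noc proteins on the early large subunit, showed no change beyond its spread, with 5838 and 5820.0 and 5193 and 6624 (95% interval of the log2 fold change -0.50 to 0.52).

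**Figure D2:**
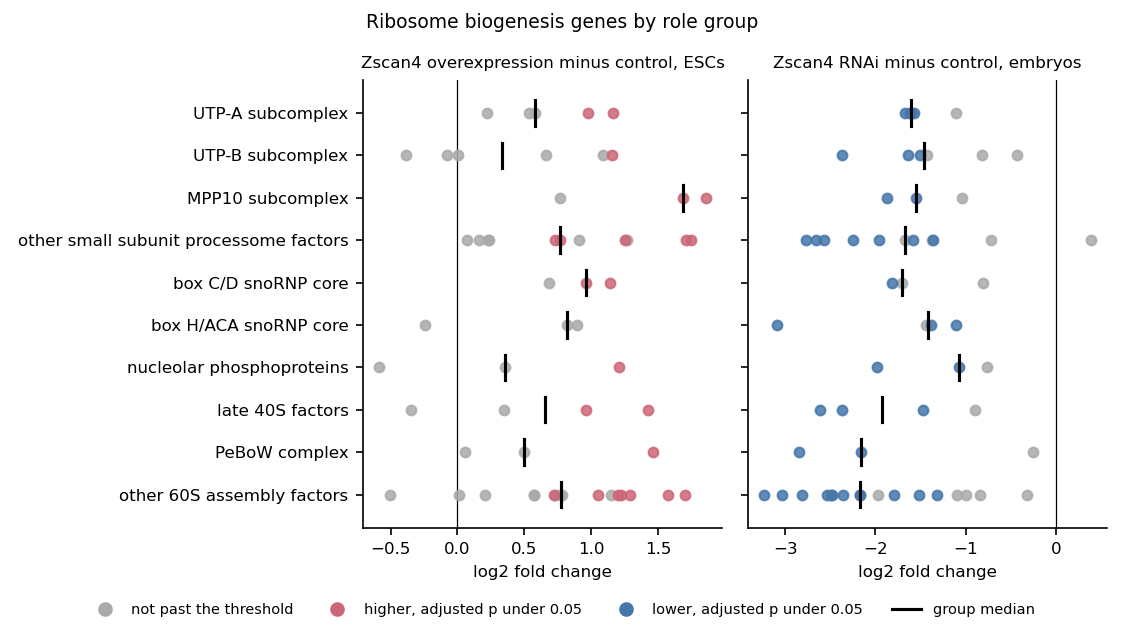
Each point is a member, placed by its log2 fold change (horizontal axis) and role group (vertical axis), in ESCs on the left and embryos on the right; bars are group medians and coloured points passed an adjusted p of 0.05. The MPP10 median of 1.68 is the farthest right among the ESC groups, and the embryo medians lie between -1.07 and -2.17.

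The 2 ESC controls lay closer together than the overexpression libraries. The median SD of the members on the log2 scale was 0.03 in controls and 0.27 with overexpression (0.09 and 0.41 over all genes), and the overexpression replicates differed by over 1.5-fold for 17 members, up to 2.55-fold for Gnl3l. When only the overexpression libraries set the spread, limma called 0 members and 0 genes. At an unadjusted p under 0.05 this limma fit held 15 of 57 members, beside a similar share of all genes (4935 of 20888). The fits without 1 ESC library leave 1 library in a group, so only their log2 fold changes are given. The median change of the members stayed between 0.69 and 0.84 when any 1 library was left out.

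The second comparison asked what Zscan4 RNAi did to the same transcripts in 2-cell embryos. Of 59 members, 39 were lower in RNAi embryos, by 1.90-fold to 7.87-fold among those that passed. Members fell in all 10 role groups. The largest changes in log2 terms were those of the large subunit factors Nop16 and Gnl3l and the box H/ACA protein Nhp2. The GTPase Bms1 was the only member with a positive fitted change, and it did not pass the test.

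In limma, 39 of 59 members were lower (66.1%), beside 12.0% of the 16417 genes tested, and 0 were higher; 0 were higher at an unadjusted p under 0.05, and edgeR and DESeq2 called 0 higher. The median log2 fold change was -1.62 over the members and -0.03 over all genes. All 6 RNAi libraries lay below all 5 controls for 14 members (23.7%), beside 4.28% of all genes. Members together took 0.624%, 0.809%, 0.764%, 0.761% and 0.420% of the reads in controls 1 to 5. In RNAi libraries 1 to 6 they took 0.236%, 0.387%, 0.109%, 0.174%, 0.283% and 0.213%, each below every control.

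Of the UTP-A proteins 4 of 5 fell (median -1.60). Wdr43, an RNA-binding subunit (chromosome 17, 71615895 to 71659031), stood at 276, 353, 276, 469 and 181 normalised reads in controls 1 to 5, and at a lowest, median and highest value of 39.1, 100.3 and 165 with RNAi. Every RNAi library lay below every control, a 2.93-fold fall (log2 fold change -1.60, SE 0.36, adjusted p = 0.00604). Utp4, named for its rise in ESCs, stood at 85.5, 109, 90.5, 116 and 29.3 in controls and 10.4, 29.4 and 36.4 with RNAi (log2 fold change -1.67, SE 0.43, adjusted p = 0.0128); control 5 fell among the RNAi libraries. Utp15 missed the threshold, with 78.8, 116, 83.5, 115 and 49.9 and 19.7, 41.3 and 75.7 (log2 fold change -1.11, SE 0.40, adjusted p = 0.0586). In UTP-B, Tbl3, Utp6 and Pwp2 fell (median -1.47). Tbl3, a beta-propeller subunit, stood at 44.4, 98.1, 59.8, 91.3 and 62.6 and 10.4, 27.9 and 32.0 with no overlap (log2 fold change -1.50, SE 0.38, adjusted p = 0.0120). Utp18, which recruits the exosome helicase in yeast, changed least, with 21.0, 42.8, 34.8, 41.0 and 19.6 and 18.3, 20.2 and 36.4 (log2 fold change -0.43, SE 0.39, adjusted p = 0.471).

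Of the MPP10 proteins Imp3 and Utp3 fell. Imp3 stood at 84.7, 247, 338, 327 and 55.7 in controls, low in controls 1 and 5, and at 18.3, 47.4 and 111 with RNAi (log2 fold change -1.88, SE 0.49, adjusted p = 0.0134). Utp3, the member that rose most in ESCs, stood at 55.3, 60.5, 97.4, 76.1 and 21.5 in controls and 3.43, 23.2 and 41.7 with RNAi. Control 5 again lay among the RNAi libraries (log2 fold change -1.55, SE 0.53, adjusted p = 0.0466). Imp4 stood at 312, 296, 427, 297 and 143 and 57.4, 126 and 280.4 and missed the threshold (log2 fold change -1.04, SE 0.39, adjusted p = 0.0649). Among the other processome proteins 7 of 11 fell (median -1.67). Dcaf13, also known as a substrate receptor of a ubiquitin ligase, stood at 97.3, 202, 163, 111 and 30.3 and 3.48, 17.5 and 44.3, with overlap only through control 5 (log2 fold change -2.66, SE 0.59, adjusted p = 0.00595). Bms1 stood at 17.6, 15.5, 9.74, 7.02 and 6.84 in controls and 4.51, 17.3 and 28.6 with RNAi (log2 fold change 0.39, SE 0.52, adjusted p = 0.643), and its groups overlapped widely.

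Of the box C/D proteins Nop56 fell and its partner Nop58 did not pass. Nop56 stood at 295, 282, 214, 192 and 200.4 in controls and 14.3, 70.4 and 157 with RNAi, with no overlap (log2 fold change -1.82, SE 0.46, adjusted p = 0.0113). Nop58 stood at 38.6, 92.2, 58.4, 79.6 and 62.6 and 19.1, 35.5 and 58.2 (log2 fold change -0.81, SE 0.37, adjusted p = 0.132). Nhp2, Nop10 and Dkc1 fell among the box H/ACA proteins, which also hold telomerase RNA. Nhp2 (chromosome 11, 51619735 to 51623714) stood at 364, 483, 700.0, 694 and 166 in controls and 7.82, 70.1 and 223 with RNAi. Its highest RNAi value came from RNAi 2 and its lowest control value from control 5 (log2 fold change -3.09, SE 0.62, adjusted p = 0.00409). Dkc1 stood at 317, 438, 141, 119 and 186 and 55.7, 88.8 and 174, close to the threshold (log2 fold change -1.11, SE 0.37, adjusted p = 0.0441), and its call was lost in 12 of 21 alternatives (adjusted p from 0.0243 to 0.146).

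Nolc1 and Ncl fell and Npm1 did not pass. Nolc1 stood at 138, 194, 134, 252 and 138 in controls and 20.9, 44.9 and 68.9 with RNAi: the groups were far apart and the fall was 3.85-fold (log2 fold change -1.98, SE 0.35, adjusted p = 0.00244). Npm1 stood at 797, 1022, 1213, 711 and 311 and 278, 460.3 and 637 (log2 fold change -0.77, SE 0.34, adjusted p = 0.119); only control 5 reached down to the RNAi libraries. Late small subunit factors fell in 3 of 4 cases (median -1.92). Nob1 stood at 40.3, 103, 132, 133 and 29.3 in controls and 5.22, 11.5 and 22.1 with RNAi, a 6.85-fold fall without overlap (log2 fold change -2.61, SE 0.50, adjusted p = 0.00360). Ltv1, which rose in ESCs, stood at 57.9, 134, 93.2, 92.5 and 23.5 and 24.4, 39.7 and 48.7 (log2 fold change -0.90, SE 0.41, adjusted p = 0.129) and did not pass.

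Large subunit factors fell farthest, with medians of -2.16 for PeBoW and -2.17 for the other 17, of which 12 fell. Nop16 (chromosome 13, 54584185 to 54590090) stood at 247, 439, 373, 306 and 86.0 in controls and 9.29, 16.9 and 101 with RNAi; the median RNAi library was far below control 5, and RNAi 2 and RNAi 5 were near it (log2 fold change -3.24, SE 0.57, adjusted p = 0.00238). Gnl3l and Gnl3 are related nucleolar GTPases, and Gnl3, nucleostemin, is abundant in stem cells. Gnl3l stood at 13.4, 33.2, 39.0, 21.1 and 19.6 and 0, 2.12 and 10.8, with no read in RNAi 3 and RNAi 4 (log2 fold change -3.03, SE 0.67, adjusted p = 0.00601). Gnl3 stood at 89.7, 161, 114, 84.3 and 60.6 and 11.7, 23.4 and 26.2, and its groups did not overlap (log2 fold change -2.17, SE 0.36, adjusted p = 0.00200). Wdr12, of the PeBoW complex, stood at 23.5, 48.0, 48.7, 58.5 and 15.6 and 1.30, 6.27 and 24.3 (log2 fold change -2.16, SE 0.61, adjusted p = 0.0206); its call was lost in edgeR and without control 2, 3 or 4 (adjusted p up to 0.0638 over the alternatives). Pes1, the PeBoW partner, stood at 25.2, 14.8, 39.0, 17.6 and 71.4 and 19.2, 22.6 and 35.3, with control 5 the highest of all libraries (log2 fold change -0.26, SE 0.43, adjusted p = 0.722). Rrp1b, a nucleolar partner of a protein phosphatase, stood at 15.1, 16.97, 43.1, 18.7 and 17.6 and 6.52, 16.9 and 39.7 (log2 fold change -0.32, SE 0.50, adjusted p = 0.701), overlapping throughout.

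**Figure D3:**
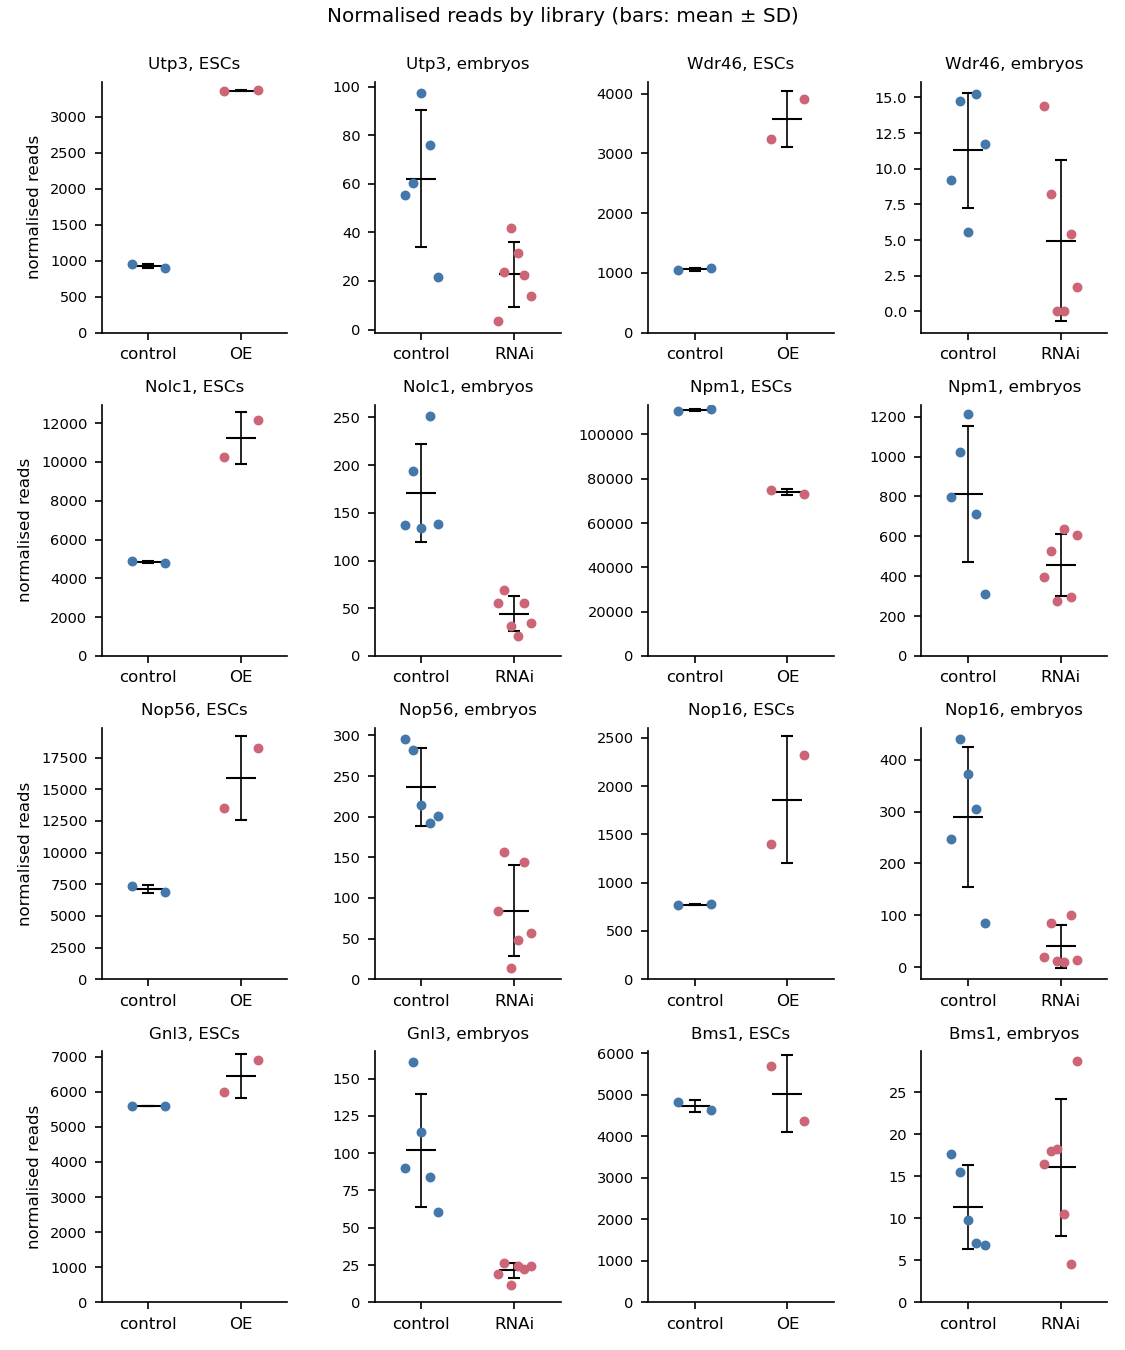
Each panel plots normalised reads (vertical axis, from 0) of 1 member in each library, controls in blue and Zscan4 overexpression (OE) or RNAi in red, with mean and SD as bars; 4 of the 8 genes are shown for a change in both comparisons and the others for contrast. Utp3 and Nolc1 separate cleanly in ESCs, Npm1 is lower in both overexpression libraries, Gnl3 changes in embryos but not past the threshold in ESCs, and Bms1 overlaps in both.

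The RNAi libraries differed among themselves. The median member lay 1.31, 0.66, 2.37, 2.04, 1.15 and 1.69 log2 units below the control mean in RNAi libraries 1 to 6. RNAi 2 was the highest RNAi library for 31 of 59 members, RNAi 3 the lowest for 23 and RNAi 4 for 14, and RNAi 3 and RNAi 4 each held no read of 7 members. The remaining Zscan4 sum was 164 in RNAi 2, 379 in RNAi 3 and 13.9 in RNAi 4. Control 5 stood apart from the other controls: its median member was 0.55 log2 units below the control mean, it was the lowest control for 30 members, its Zscan4 sum of 345 lay within the RNAi range, and 2.26% of its reads were mitochondrial against 2.66% to 6.05% elsewhere. Against controls 1 to 4 alone, 28 of 59 members were lower in every RNAi library, a share that was not counted over all genes. The fit without control 5 called 40 of 59 members lower, beside 2275 of 16417 genes. Control 5 was singled out after its values were seen.

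**Figure D4:**
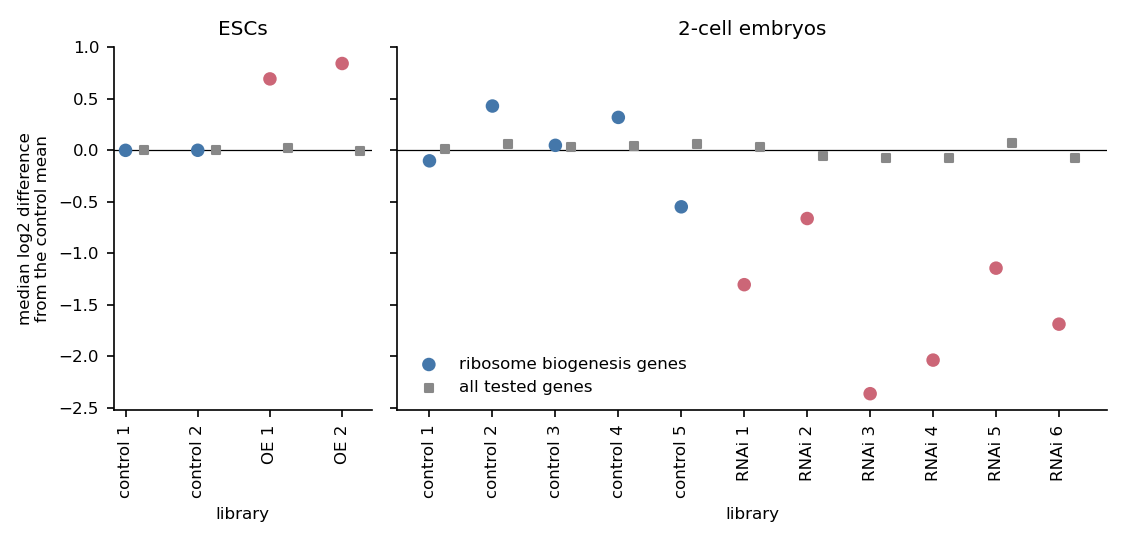
Circles give the median over the members, and squares over all tested genes, of each library's log2 difference from the control mean (vertical axis, log2 units) by library (horizontal axis). The squares stay near 0, the 2 overexpression circles stand at 0.69 and 0.84, and the RNAi circles run from -0.66 to -2.37, below control 5 at -0.55.

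The embryo count depended on single controls and on the tool. Without control 2, 3 or 4, limma called 19, 25 and 21 members lower, beside 1213, 1352 and 1247 of 16417 genes. With edgeR it was 24 members, beside 1244 genes. Centring each library on its median raised the median change of all genes to 0.20 from -0.03, and then 28 members were lower with a median of -1.39; no setting called a member higher.

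Both comparisons share no library, and 57 members were measured in both. Of these, 17 were higher with overexpression and lower with RNAi, both past the threshold: Bop1, Dcaf13, Ebna1bp2, Heatr1, Nifk, Nip7, Nolc1, Nop16, Nop2, Nop56, Pwp2, Rrp12, Rrp7a, Rrp8, Utp14a, Utp3 and Utp4. They made up 73.9% of the 23 members higher in ESCs, beside 66.7% of all 57 lower in embryos, and 44.7% of the 38 lower in embryos, beside 40.4% of all 57 higher in ESCs. Both shares lie near those rates of all members. Over 13072 genes tested in both and matched by symbol, 326 (2.49%) changed in both ways, beside 29.8% of the members. The 326 were 19.9% of the 1638 higher in ESCs, beside 13.1% of all 13072 lower in embryos. They were 19.0% of the 1717 lower in embryos, beside 12.5% of all 13072 higher in ESCs. A further 6 passed in ESCs alone, 21 in embryos alone and 13 in neither. A positive fitted change in ESCs and a negative one in embryos was found for 50 members. Of the 57, 51 were positive in ESCs and all but Bms1 were negative in embryos. The count of 50 thus follows almost wholly from the direction of each comparison and does not speak of gene-by-gene pairing. Across the 57 members, Pearson's r between the log2 fold changes was -0.18 and Spearman's rho -0.15, given as a description because members of 1 comparison share their libraries. The median embryo change was -1.80 for members called in ESCs and -1.55 for the others, a difference that was not tested. Nop16 shows the pairing at 1 gene: it stood at 765 and 773 in control ESCs and 1395 and 2321 with overexpression (log2 fold change 1.23, SE 0.29, adjusted p = 0.0494), against its fall in embryos. Gnl3 and Gnl3l fell in embryos while in ESCs their log2 fold changes were 0.20 and -0.51 and did not pass.

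**Figure D5:**
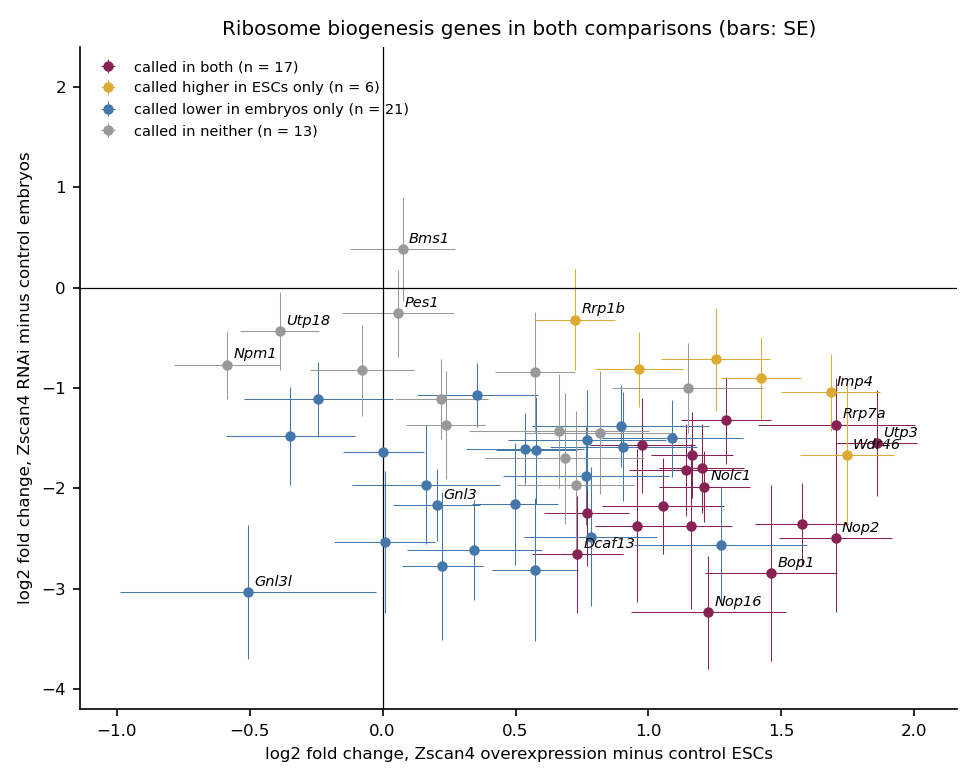
Each point is 1 of the 57 members measured in both comparisons, placed by its log2 fold change in ESCs (horizontal axis) and embryos (vertical axis), with SE bars and colour by which comparisons it passed. Most points lie in the lower right, where 50 members had a positive change in ESCs and a negative one in embryos. Bms1 is the only point above 0 on the vertical axis. The count of 50 follows almost wholly from the direction of each comparison.

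Genes of neighbouring steps were counted from fixed lists. Over all genes tested, 11.7% were higher in overexpressing ESCs and 12.0% lower in RNAi embryos. In the other direction, 2390 of 20888 were lower in ESCs and 1007 of 16417 higher in embryos. The RNA polymerase I machinery, which transcribes the precursor, had 7 of 15 genes higher in overexpressing ESCs (median 0.66) and 11 of 15 lower in RNAi embryos (median -2.00). Cd3eap, a polymerase I subunit, stood at 175 and 217 in control ESCs and 953 and 1285 with overexpression, a 5.70-fold rise (log2 fold change 2.50, SE 0.25, adjusted p = 0.0137). The second largest subunit, Polr1b, went from 1466 and 1435 to 4427 and 3845 (log2 fold change 1.51, SE 0.16, adjusted p = 0.0149). In embryos the promoter-factor subunit Taf1d stood at 325, 390.2, 452, 226 and 151 in controls and 33.8, 81.4 and 148 with RNAi, without overlap (log2 fold change -2.00, SE 0.39, adjusted p = 0.00372). Polr1c, shared by polymerases I and III, stood at 304, 233, 289, 251 and 126 and 3.91, 31.9 and 117, also without overlap (log2 fold change -3.13, SE 0.64, adjusted p = 0.00421).

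Of other processing and assembly factors, 21 of 75 were higher in ESCs (median 0.54) and 44 of 73 lower in embryos (median -1.69), where Trmt112 and Efl1 were higher. The helicases Ddx51 and Dhx37 went from 571 and 503 to 1319 and 1485 (log2 fold change 1.38, SE 0.18, adjusted p = 0.0183) and from 865 and 824 to 1903 and 1859.8 (log2 fold change 1.16, SE 0.16, adjusted p = 0.0189) in ESCs. In embryos Eif6, which keeps new large subunits from joining small ones too early, stood at 444, 646, 493, 612 and 281 and 104, 171 and 224 (log2 fold change -1.60, SE 0.30, adjusted p = 0.00314). Nufip1, a factor of box C/D assembly, stood at 117, 212, 141, 228 and 84.1 and 4.64, 24.1 and 55.0 (log2 fold change -2.66, SE 0.50, adjusted p = 0.00314). Both fell in every RNAi library against every control.

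The exosome, the nuclease complex that trims ribosomal RNA ends, was mixed. In ESCs Exosc4, Exosc5, Exosc6, Exosc10 and Skiv2l2 were higher, 5 of 13 (median 0.54). Exosc10 stood at 2116 and 2086 and 4361 and 5435 (log2 fold change 1.21, SE 0.18, adjusted p = 0.0221). Exosc4 stood at 319 and 339 and 929 and 1524 (log2 fold change 1.85, SE 0.29, adjusted p = 0.0241). Exosc6 had no read in either control and stood at 42.8 and 397 with overexpression, so its rise starts at the floor and its replicates lie far apart. In embryos C1d, Dis3, Exosc2 and Exosc10 were lower, 4 of 14, and 1 was higher (median -0.93). The cofactor C1d stood at 272, 398, 376, 295 and 117 and 8.13, 66.4 and 153 (log2 fold change -2.44, SE 0.54, adjusted p = 0.00621). The cofactor Mphosph6 went the other way, from 2264, 1886, 2228, 1378 and 1051 to 3259, 4673 and 6524, above every control (log2 fold change 1.47, SE 0.29, adjusted p = 0.00383).

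MYC factors are known activators of ribosome biogenesis genes, and their network was counted last. In ESCs Myc, Mycl and Mycn were higher and Mxi1 lower, of 10 genes (median 0.03). Myc stood at 62.9 and 49.6 normalised reads in controls and 1289 and 1664 with overexpression, a 26.3-fold rise (log2 fold change 4.69, SE 0.26, adjusted p = 0.0112). Mxi1, a repressive partner of MAX, stood at 1209 and 1174 and 302 and 248 (log2 fold change -2.12, SE 0.19, adjusted p = 0.0127). In embryos 1 of 12 was higher and none lower (median 0.26; 3 had an unadjusted p under 0.05, limma). Max, the shared partner, stood at 109.9, 56.8, 69.6, 104 and 194 and 146, 199.8 and 243 (log2 fold change 0.96, SE 0.32, adjusted p = 0.0430), and Mga at 31.0, 62.0, 55.7, 57.4 and 36.2 and 2.32, 24.3 and 35.0 without passing (log2 fold change -1.36, SE 0.52, adjusted p = 0.0755). Myc itself, named after its values were seen, had 0, 11.1, 6.96, 9.37 and 41.1 in embryo controls and 5.49, 11.0 and 106 with RNAi (log2 fold change 0.93, SE 0.82, adjusted p = 0.454). The part of MYC in the members' changes was not tested.

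The strand setting of the counting is not given in the sources used here, and 24 of the 59 members have an exon that overlaps another annotated gene (GENCODE vM21), so their values are uncertain. Of the members given with values these are Bop1, Dkc1, Gnl3, Imp4, Ncl, Nhp2, Noc2l, Nop56, Nop58, Pes1, Rrp1b, Rrp7a, Tbl3, Tsr1, Wdr12 and Wdr43. The same holds for Cd3eap, Eif6, Exosc4, Exosc6, Mxi1 and Taf1d among the pathway genes given with values. Among members without such an overlap, 14 of 34 were higher in ESCs (median 0.80) and 21 of 35 lower in embryos (median -1.67).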

How the data were processed

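Gene expression was measured in 15 libraries. Per the submitters' processing notes, Trimmomatic, HISAT2 and featureCounts were used with mm10; versions, annotation, strand setting and handling of shared reads were not given in the sources used here. One table for ESCs and another for embryos hold the authors' normalised signal, which is read counts divided by a factor of each library. The unit follows from the values, since 100% of them in each library were whole multiples of 1 fixed step (within 0.01 reads), which gave whole reads back. The tables were normalised separately, so levels were compared only within a table, and without lengths only within a gene.

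The design foresaw raw counts or normalised values; the test planned for normalised values was the one applied, limma 3.58.1 (R 4.3.3) with a trend on log2(value + 1), fitted over all genes that reached a value of 1 in 2 or more ESC libraries or 5 or more embryo libraries, without covariates, with Benjamini-Hochberg adjustment over all genes tested and a threshold of 0.05. Fold is the ratio of group means; log2 fold changes on this scale understate low genes. Summed Zscan4 reads were compared by an exact permutation test. The scripts were tested on simulated data. Alternatives were other scalings, pseudocounts of 0.5 and 5, other filters, edgeR 4.0.16 and DESeq2 1.42.0 on the recovered reads, voom weights, a replicate block, the spread of the overexpression libraries alone, members without an overlapping gene, and each library left out.

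The members and lists were chosen with earlier results of these data known. Values are given for the member with the smallest p and the one with the smallest change in each role group, for the 3 largest changes, for members called against the majority or the same way in both comparisons, and for the 2 smallest p of each pathway list; others are named where a count is small or after their values were seen. Embryo control columns carry numbers that only name libraries.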

Additional observations from a re-analysis of the deposited data

Results flagged for a closer look

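The embryo members named by rule, and the mean level of all members, were checked in each embryo group for a library standing far from its fellows by Dixon's ratio, 46 groups in all, of which chance marks about 1 in 20. For Rrp1b, control 3 stood at 43.1 normalised reads, above the other 4 controls, and the gap made up 0.87 of the range. For Utp18, RNAi 6 stood at 36.4, above the other 5 RNAi libraries (0.796 of the range). Neither gene passed the test between the groups.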

How the results depend on the processing

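In ESCs the median change of the members moved beyond the spread only under quantile scaling (0.69). Leaving out overexpression library 1 or 2 gave 0.84 and 0.69. That spread came almost wholly from these 2 libraries, so leaving 1 of them out could hardly exceed it. With the spread of the overexpression libraries alone, 0 genes and 0 members were called (4935 genes at an unadjusted p under 0.05). Leaving out 1 library gave 0 to 10855 genes, 0 to 45 members higher and 0 to 5 lower; without control 1 or 2 it was 0 genes (3617 and 3646 at an unadjusted p under 0.05). When an arm was left with 1 library, it was assumed to vary like the other. Npm1 was called lower, the only such member, with a mean filter of 10 and with voom (1 each). Noc2l had a log2 fold change of 0.18 without overexpression library 1 and of -0.17 without library 2. DESeq2 called 31 members higher, beside 2907 genes, and edgeR 25, beside 2319 genes. The main fit called 23 members and 2453 genes higher. Members without an overlapping gene gave 14 of 34. Over all genes, the difference between the 2 controls and that between the 2 overexpression libraries had a correlation of -0.0072. The controls lay so close together that this value cannot show whether the replicate numbers pair the ESC libraries. With a replicate block 6024 genes and 23 members were called, 20 of the members shared with the fit without it. With voom the ESC split was 2050 higher to 1231 lower genes.

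In embryos leaving out 1 library gave 1730 to 3578 genes and 19 to 42 members lower. Members without an overlapping gene gave 21, and edgeR 24. The split of 1007 higher to 1976 lower genes became 1396 to 1609 by quantile scaling, 1563 to 1604 by centring and 1594 to 2083 by voom. No paired analysis was possible because the numbers of the embryo control columns do not match the label numbers. The cause of these differences was not tested. A single embryo read was worth 0.687 to 1.39 normalised reads, and members held 60 to 4132 control reads in all, which limits the smallest.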
